A study of Homo sapiens with 8 samples.

Results

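The 35 genes described here belong to the integrated stress response and the amino acid synthesis programme that it controls, together with a few genes of the unfolded protein response. They were chosen by name, with earlier results of these data known. Each symbol was found under a single Ensembl identifier, and the genes make up 35 of the 78899 in the count table. They were measured by bulk RNA sequencing in tri-culture microglia (4 libraries) and mono-culture microglia (4 libraries), all made from H1, a human embryonic stem cell line, although the labels also call the cells induced pluripotent. Both groups carried a GFP label and were recovered by fluorescence-activated sorting 2 weeks after plating, and 1 library of each group came from each of 4 batches. Tri-cultures were kept without added cytokine, whereas mono-cultures were given IL-34 at 100 ng/mL and M-CSF at 10 ng/mL, both ligands of the CSF1 receptor. The effect of the partner cells, which the labels do not name, and that of the cytokines therefore cannot be told apart, and a single cell line stands behind every library.

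In the integrated stress response, kinases that each sense a different stress phosphorylate the alpha subunit of the initiation factor eIF2, which lowers protein synthesis in general while the mRNA of the transcription factor ATF4 is translated more. ATF4, alone or with C/EBP family partners, then switches on genes for amino acid synthesis and uptake, for charging of tRNAs and for redox balance, and also genes that end the response. Phosphorylation of eIF2 and translation of ATF4 are not seen in RNA counts, so only the transcript side of the pathway is described here.

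Libraries held 17602010 to 24491765 counts in tri-culture and 17037481 to 33363972 in mono-culture. Tri-culture libraries 3 and 4 were more alike (chi-square per degree of freedom 9.21) than any other pair of tri-culture libraries (31.5 for libraries 1 and 2, and 48.2 to 65.1 between these and libraries 3 and 4), so results were also taken without either pair. All 35 genes passed the filter on low counts, and 33 had at least 10 counts in every library, CHAC1 and ASNS being the exceptions. Levels are given as CPM, read counts scaled to the library's depth with TMM factors, or, where genes are compared with each other, in the deposited length-normalized signal. The sorted cells expressed the leukocyte gene PTPRC (555 to 688 CPM in tri-culture and 577 to 684 CPM in mono-culture), the myeloid factor SPI1 (434 to 556 CPM in tri-culture and 427 to 539.5 CPM in mono-culture) and the receptor CSF1R (1099 to 2230.3 CPM in tri-culture and 1276 to 1524 CPM in mono-culture). All 13 microglia and macrophage markers were tested, and 4 were called higher and 1 lower (summed 5419 to 6882 CPM in tri-culture and 4103 to 4983 CPM in mono-culture). Over all genes tested 13.9% were called higher in tri-culture and 13.0% lower, shares to set beside each count in this paragraph. The macrophage gene CD68 had almost no counts in both groups, at 0.122 to 0.499 CPM in tri-culture and 0.342 to 0.805 CPM in mono-culture. Another annotated gene shares 81.7% of its exon bases. How reads over 2 genes were counted is not given in the sources used here, so the level of CD68 cannot be relied on. Markers of other cells were present too. Of 10 astrocyte markers 8 were called higher in tri-culture, with a summed level of 728 to 859 CPM in tri-culture against 232 to 304 CPM in mono-culture, where AQP4 and ALDH1L1 had no count. Of 10 neuron markers 5 were tested, and 3 were called higher and 1 lower (summed 15.4 to 40.4 CPM in tri-culture and 21.9 to 41.96 CPM in mono-culture). GAP43, STMN2, SNAP25 and DCX had no count in mono-culture. A marker with no count in a group could pass the filter only through the other group, so the direction of any call was fixed. Of 6 oligodendrocyte lineage markers 5 were tested and 3 were called higher (summed 209.8 to 294 CPM in tri-culture and 152 to 183 CPM in mono-culture). Of 8 dendritic cell markers 5 were tested, and 4 were called higher and 1 lower (summed 278 to 407 CPM in tri-culture and 42.1 to 59.2 CPM in mono-culture). XCR1 stood at 0 in tri-culture and FLT3 at 0 in mono-culture. The summed level of 6 fibroblast markers was 353, 3.71, 354 and 118 CPM in tri-culture libraries 1 to 4 and 6.80 to 26.4 CPM in mono-culture. Pluripotent cell markers summed to at most 0.181 CPM in tri-culture and 0.360 CPM in mono-culture. Proliferation genes moved as well, with 8 of 10 called lower and a summed level of 267 to 418 CPM in tri-culture against 644 to 771 CPM in mono-culture, and of 12 immediate early and heat shock genes 3 were called higher and 3 lower. The part that any of these differences plays in the values below was not tested, and in bulk RNA fewer cells of a type and less RNA per cell cannot be told apart.

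Set against mono-culture, more of these genes were lower than higher in tri-culture. At an adjusted p under 0.05 (edgeR, over 16249 genes), 17 of the 35 were called, against 26.9% of all genes tested. Of these, 14 were lower in tri-culture (40.0% of the 35), against 13.0% of all genes tested, and 3 were higher (8.57%), against 13.9% of all genes tested. The median log2 fold change of the 35 was -0.26, beside 0.02 over all genes tested. Because the genes were chosen with earlier results of these data known, these shares only describe them. In the same 14 genes every tri-culture library lay below every mono-culture library, an arrangement found in 14.1% of all genes tested, and in the 3 higher genes every tri-culture library lay above (15.3% of all genes tested). All 14 were lower in each of the 4 batch pairs and all 3 were higher in each. CHAC1 is among the 14, and its low counts in tri-culture left only a decrease to be called. The number called higher was 1 without mono-culture library 2. The genes that fell were 2 transcription factors, 5 feedback and stress effectors, 3 serine synthesis enzymes, the folate enzyme SHMT2 and 3 amino acid transporters, whereas the eIF2 kinases and the endoplasmic reticulum (ER) genes were not among them.

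**Figure D1:**
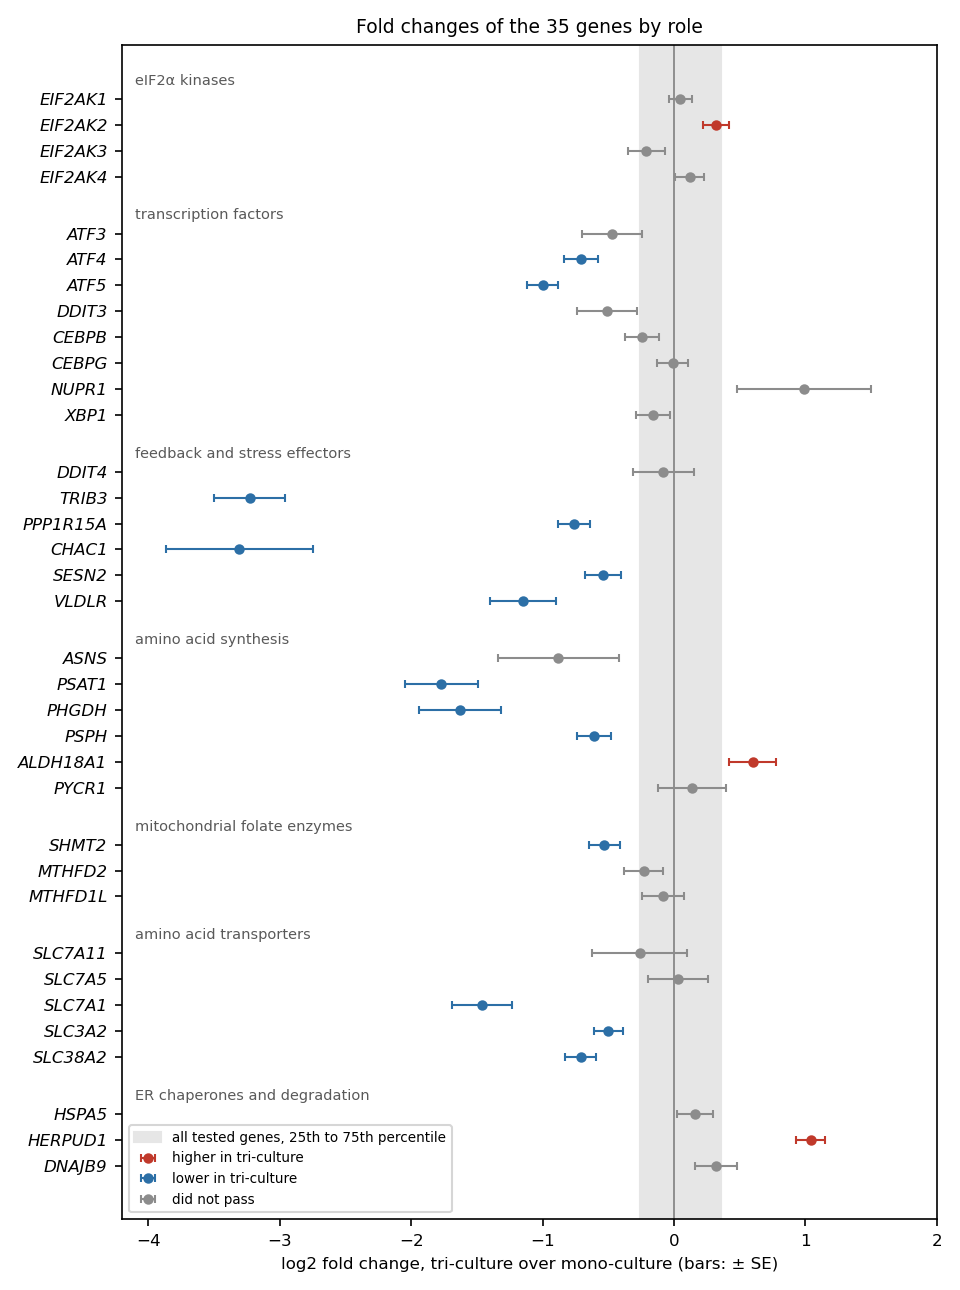
Log2 fold changes of the 35 genes, tri-culture over mono-culture, in groups by role; bars are ± SE from edgeR, colours mark genes called higher, called lower or not passing, and the grey band is the interquartile range of all genes tested. TRIB3 and CHAC1 lie farthest to the left at -3.23 and -3.31, and HERPUD1 is the highest called gene at 1.04.

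**Figure D2:**
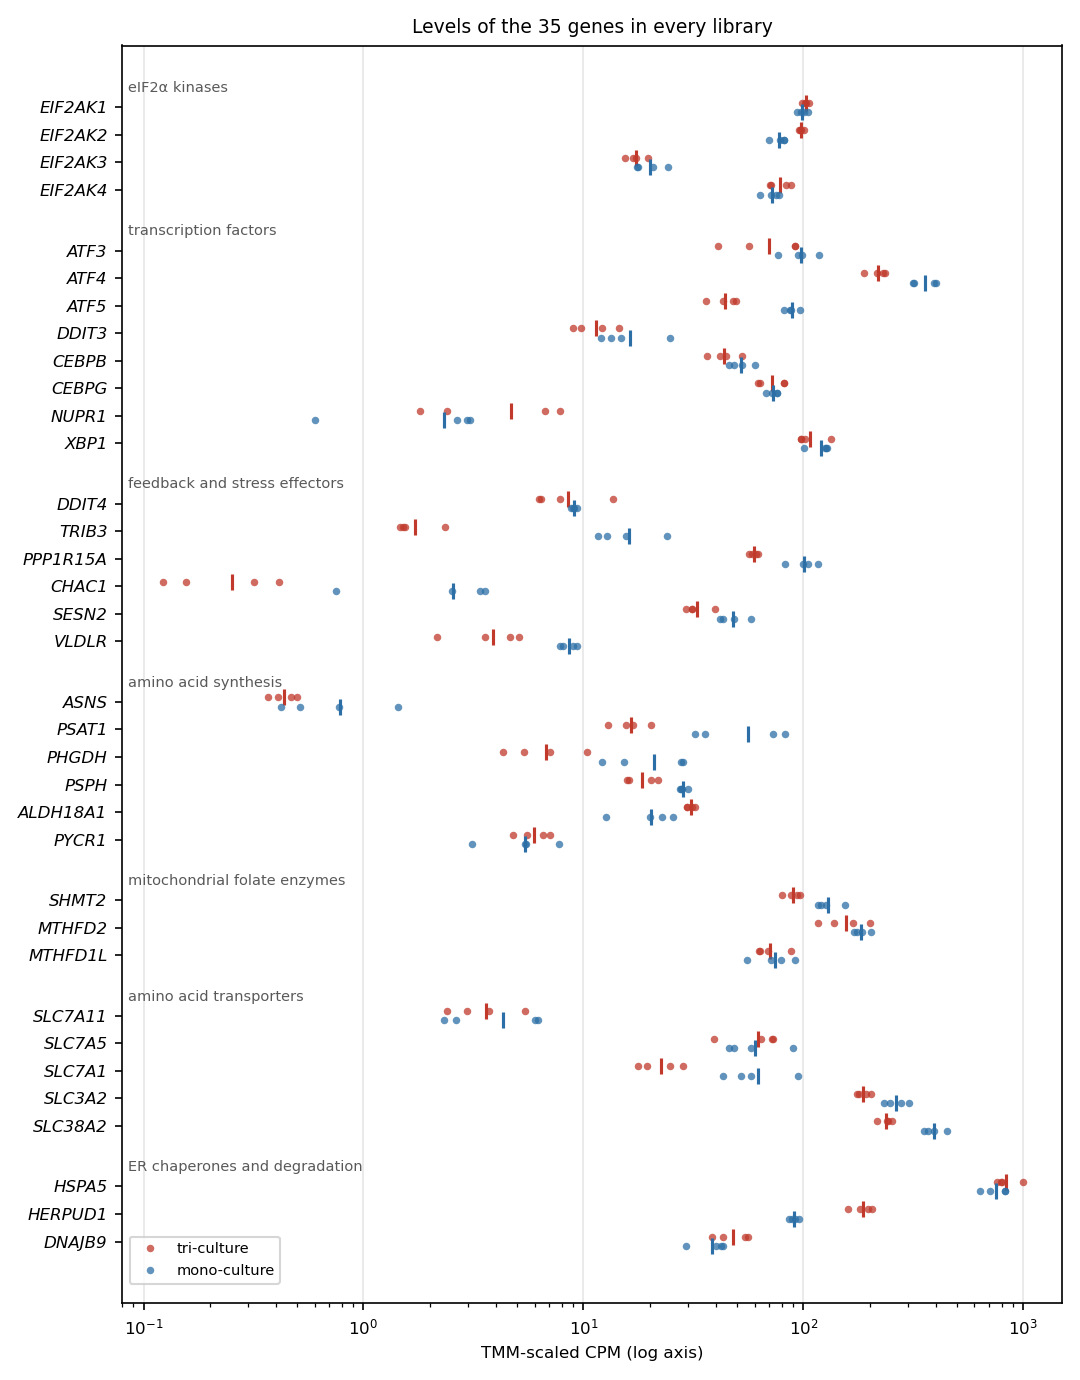
Level of each of the 35 genes in every library, in TMM-scaled CPM on a log axis; points are libraries, ticks are group means, tri-culture is drawn above mono-culture in each row. The groups are apart for the 17 called genes and overlap for the other 18.

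The kinases that start the response differed little between the cultures, and only the RNA sensor was called. EIF2AK2, which encodes PKR, the kinase activated by double-stranded RNA and itself an interferon-induced gene, stood at 95.2, 97.5, 101 and 96.2 CPM in tri-culture and 81.4, 70.2, 81.7 and 78.4 CPM in mono-culture. EIF2AK2 had a log2 fold change of 0.32 ± 0.10 SE (edgeR adjusted p = 0.0228). The groups did not overlap, but the difference was only 1.25-fold, and the call was lost without tri-culture library 3 (edgeR adjusted p = 0.065), mono-culture library 2 (0.0725) or mono-culture library 4 (0.0612), and in 8 of 23 alternatives in all. The other 3 kinases had overlapping groups. EIF2AK3, which encodes PERK, the kinase of the ER membrane, stood at 15.4 to 19.7 CPM in tri-culture and 17.5 to 24.2 CPM in mono-culture. For EIF2AK3 the log2 fold change was -0.21 ± 0.14 SE (edgeR adjusted p = 0.336). EIF2AK4, which encodes GCN2, the sensor of uncharged tRNA, stood at 70.8 to 87.7 CPM in tri-culture and 63.5 to 77.3 CPM in mono-culture. EIF2AK4 had a log2 fold change of 0.12 ± 0.11 SE (edgeR adjusted p = 0.48). EIF2AK1, which encodes the haem-regulated kinase HRI that also relays mitochondrial stress, stood at 98.7 to 107 CPM in tri-culture and 93.2 to 104 CPM in mono-culture. For EIF2AK1 the log2 fold change was 0.05 ± 0.09 SE (edgeR adjusted p = 0.77). Per length, EIF2AK1 was the most abundant of the kinases, at a signal of 65.2 ± 2.28 in tri-culture and 62.7 ± 3.63 in mono-culture (SD, n = 4 each), and EIF2AK3 the least, at 3.02 ± 0.336 in tri-culture and 3.47 ± 0.539 in mono-culture.

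Among the transcription factors ATF4 and ATF5 fell and the other 6 did not pass. ATF4, the central factor of the response (ENSG00000128272, chromosome 22, 39519695 to 39522685, GRCh38), stood at 236, 231, 216 and 189 CPM in tri-culture and 315, 400.2, 391 and 318 CPM in mono-culture. The highest tri-culture library thus lay well below the lowest mono-culture library, a 1.63-fold decrease. ATF4 had a log2 fold change of -0.71 ± 0.13 SE (edgeR adjusted p = 9.02e-04). ATF5, a related factor that is also translated under eIF2 phosphorylation and acts in the mitochondrial stress response, stood at 35.96, 42.9, 49.5 and 47.8 CPM in tri-culture and 87.9, 96.3, 82.1 and 87.3 CPM in mono-culture, and the mono-culture libraries were close to each other. For ATF5 the log2 fold change was -1.0 ± 0.12 SE (edgeR adjusted p = 4.03e-05). Exons of IL4I1 and NUP62 on the other strand cover 21.2% of the exon bases of ATF5, so its value is uncertain if strand was not used in counting. DDIT3, which encodes CHOP, the factor linked to cell death in prolonged stress, stood at 14.6, 12.2, 9.70 and 8.99 CPM in tri-culture and 14.8, 24.8, 12.1 and 13.3 CPM in mono-culture. The groups overlapped, mono-culture library 2 was far above the others, and the gene did not pass. DDIT3 had a log2 fold change of -0.51 ± 0.23 SE (edgeR adjusted p = 0.132). Exons of MARS1 and MBD6 on the other strand lie over 31.6% of its exon bases. ATF3, a repressor of the same family that many stresses induce, stood at 41.1, 91.2, 91.3 and 56.7 CPM in tri-culture and 94.9, 118, 76.96 and 99.1 CPM in mono-culture, with tri-culture libraries 2 and 3 inside the mono-culture range. For ATF3 the log2 fold change was -0.47 ± 0.23 SE (edgeR adjusted p = 0.151). Both C/EBP partners of ATF4 had overlapping groups. CEBPB, which is also a macrophage factor, stood at 36.4 to 52.8 CPM in tri-culture and 46.03 to 60.3 CPM in mono-culture. CEBPB had a log2 fold change of -0.24 ± 0.13 SE (edgeR adjusted p = 0.212). CEBPG, a partner without an activating domain of its own, stood at 62.5 to 81.8 CPM in tri-culture and 67.5 to 75.9 CPM in mono-culture. For CEBPG the log2 fold change was -0.01 ± 0.12 SE (edgeR adjusted p = 0.973). NUPR1, a small chromatin-associated stress protein, split the tri-culture libraries into a high and a low pair at 6.66, 7.79, 1.81 and 2.39 CPM, against 2.94, 2.66, 3.04 and 0.600 CPM in mono-culture. NUPR1 had a log2 fold change of 0.99 ± 0.51 SE (edgeR adjusted p = 0.178). XBP1, the factor of the IRE1 branch, whose active form arises by splicing and is not told apart in gene counts, stood at 97.6 to 134 CPM in tri-culture and 101 to 128 CPM in mono-culture. For XBP1 the log2 fold change was -0.16 ± 0.13 SE (edgeR adjusted p = 0.415). Without tri-culture libraries 1 and 2, DDIT3 and CEBPB were called lower (edgeR adjusted p = 0.0381 and 0.0267), and without tri-culture libraries 3 and 4 NUPR1 was called higher (0.0184).

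Effectors that act downstream of ATF4 and CHOP had the lowest median change of the 7 roles. Of 6 such genes 5 fell and none rose. Their median log2 fold change was -0.96, beside -0.75 for the amino acid synthesis genes. The effector median includes CHAC1, 1 of the 5, for which only a decrease could be called. That of the amino acid synthesis genes includes ASNS, whose level and direction cannot be relied on. TRIB3, a pseudokinase that binds ATF4 and restrains it (ENSG00000101255, chromosome 20, 362835 to 397559), stood at 2.34, 1.47, 1.54 and 1.51 CPM in tri-culture and 24.1, 15.7, 11.7 and 12.8 CPM in mono-culture. It was 9.35-fold lower, and the batch pairs gave log2 ratios between -3.41 and -2.92. TRIB3 had a log2 fold change of -3.23 ± 0.27 SE (edgeR adjusted p = 2.38e-06). CHAC1, an enzyme that degrades glutathione (ENSG00000128965, chromosome 15, 40952962 to 40956519), stood at 0.413, 0.122, 0.317 and 0.156 CPM in tri-culture and 0.753, 3.39, 3.58 and 2.52 CPM in mono-culture. These levels rest on 9, 3, 7 and 3 reads in tri-culture and 22, 61, 120 and 42 in mono-culture. For CHAC1 the log2 fold change was -3.31 ± 0.56 SE (edgeR adjusted p = 5.87e-04). CHAC1 passed the filter on low counts only through mono-culture, so its call had to be a decrease. Its mono-culture library 1 was far below the other mono-culture libraries. The log2 ratio of batch 1 was -0.87, whereas those of batches 2, 3 and 4 were -4.79, -3.50 and -4.02, and without batch 1 the log2 fold change was -3.97. With limma on the signal and a pseudocount of 0.5 it was -2.27.

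PPP1R15A, which encodes GADD34, the subunit that brings a phosphatase to eIF2 and so ends the response, stood at 56.4, 58.3, 61.9 and 61.1 CPM in tri-culture and 82.2, 116, 106 and 100.1 CPM in mono-culture. Its tri-culture libraries were nearly level and all below the mono-culture ones. PPP1R15A had a log2 fold change of -0.76 ± 0.12 SE (edgeR adjusted p = 2.72e-04). VLDLR, a lipoprotein receptor that ATF4 induces in ER stress, stood at 4.64, 2.16, 5.08 and 3.59 CPM in tri-culture and 7.84, 8.10, 9.40 and 8.94 CPM in mono-culture. For VLDLR the log2 fold change was -1.15 ± 0.25 SE (edgeR adjusted p = 0.00336). SESN2, a leucine sensor and inhibitor of mTORC1, stood at 39.7, 31.03, 31.1 and 29.3 CPM in tri-culture and 48.2, 58.1, 41.6 and 43.1 CPM in mono-culture. Its highest tri-culture library came close to its lowest mono-culture library (log2 fold change -0.54 ± 0.14 SE, edgeR adjusted p = 0.0108), and its call did not hold without batch 2 (edgeR adjusted p = 0.078) and without tri-culture libraries 3 and 4 (0.067). DDIT4, which encodes REDD1, another inhibitor of mTORC1, was the exception in this group, at 13.6, 7.83, 6.26 and 6.44 CPM in tri-culture and 9.10, 9.38, 8.95 and 8.76 CPM in mono-culture. DDIT4 had a log2 fold change of -0.08 ± 0.23 SE (edgeR adjusted p = 0.842). Exons of DDIT4-AS1, which had no count, cover 41.2% of its exon bases on the other strand. The mono-culture libraries were almost level while tri-culture library 1 lay above them all and tri-culture libraries 2 to 4 below, and without tri-culture libraries 1 and 2 DDIT4 was called lower (edgeR adjusted p = 0.0475).

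Promoter windows were searched on both strands for elements known to bind the factors of these pathways, in RefSeq annotation of GRCh38.p14 from 250 bases before to 50 after each annotated start. The C/EBP-ATF composite element, searched as TGATGNAA, binds ATF4 with a C/EBP partner. The cyclic AMP response element, TGACGTCA, binds dimers of the ATF and CREB family, and GCCACGT holds the core bound by XBP1. The ER stress element binds ATF6 with NF-Y and was searched as CCAAT and CCACG with 9 bases between them, so that it can overlap the XBP1 core, though no gene here held both. Windows were found for 29 of the 35 genes. The composite element was present in 8 of these 29 genes. It was in 10 of their 45 windows, 3 of them at the single MTHFD1L site, against 3.62% of all 35116 windows. Of the 8 genes 3 were called lower (CHAC1, SLC3A2 and SLC7A1), 1 higher (HERPUD1) and 4 did not pass (ASNS, ATF3, CEBPG and MTHFD1L). The promoters of CHAC1 (chr15:40953221-40953470, plus strand) and PPP1R15A (chr19:48872171-48872420, plus strand), both lower in tri-culture, are shown 5′ to 3′ up to the base before the start because each holds 1 of these elements, in capitals. CHAC1 holds the composite element on the reverse strand, starting 209 bases before the start. PPP1R15A holds the cyclic AMP response element, starting 58 bases before the start, an element present in 1.85% of all windows.
CHAC1: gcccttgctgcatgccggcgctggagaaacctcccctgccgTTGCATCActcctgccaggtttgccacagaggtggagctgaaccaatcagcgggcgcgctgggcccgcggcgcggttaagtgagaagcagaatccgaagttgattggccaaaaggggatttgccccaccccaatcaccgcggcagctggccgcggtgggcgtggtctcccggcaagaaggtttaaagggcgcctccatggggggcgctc
PPP1R15A: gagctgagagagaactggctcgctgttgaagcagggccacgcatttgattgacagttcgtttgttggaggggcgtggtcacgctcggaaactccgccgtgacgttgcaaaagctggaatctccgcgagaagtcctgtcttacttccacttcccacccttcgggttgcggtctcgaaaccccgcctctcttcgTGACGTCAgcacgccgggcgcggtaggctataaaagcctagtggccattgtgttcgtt

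**Figure D3:**
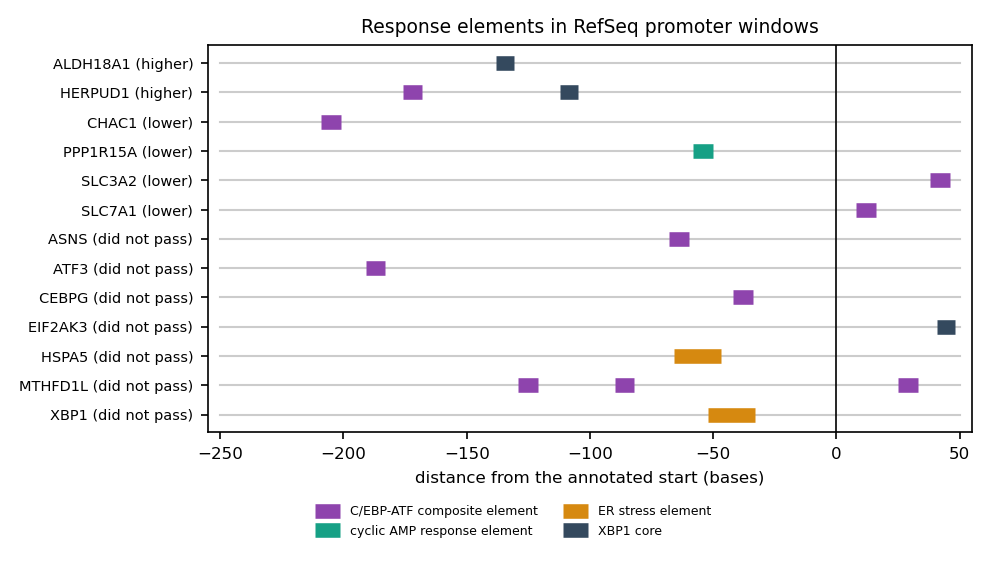
Positions of the searched elements in the promoter windows of the 13 genes that hold at least 1, as distance in bases from the annotated start; grey lines are the windows and labels give each gene's call. The 3 marks of MTHFD1L are 1 genomic site seen from 3 annotated starts. The composite element and the XBP1 core occur both in genes with a call and in genes without one.

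Serine synthesis enzymes fell together. PSAT1, the aminotransferase of the pathway (ENSG00000135069, chromosome 9, 78297143 to 78330093), stood at 12.9, 15.6, 20.3 and 16.8 CPM in tri-culture and 32.1, 72.8, 82.96 and 35.9 CPM in mono-culture. It was 3.41-fold lower (log2 fold change -1.77 ± 0.28 SE, edgeR adjusted p = 3.98e-04), and without tri-culture libraries 1 and 2 it narrowly missed the threshold (edgeR adjusted p = 0.0511). PHGDH, the first enzyme of the pathway, stood at 7.07, 4.32, 10.3 and 5.35 CPM in tri-culture and 15.2, 27.8, 28.5 and 12.2 CPM in mono-culture. For PHGDH the log2 fold change was -1.63 ± 0.31 SE (edgeR adjusted p = 0.0016). For both enzymes mono-culture libraries 2 and 3 were above mono-culture libraries 1 and 4. PSPH, the phosphatase of the last step, varied less, at 20.3, 21.8, 15.8 and 16.2 CPM in tri-culture and 27.96, 27.8, 30.04 and 27.5 CPM in mono-culture. PSPH had a log2 fold change of -0.61 ± 0.13 SE (edgeR adjusted p = 0.00398). The 3 enzymes thus ranked in the order of PSAT1, PHGDH and PSPH by the size of the decrease, of which PSAT1 and PHGDH differ by less than their standard errors. PHGDH is also made by astrocytes, whose markers were higher in the same tri-culture libraries, and the source of the PHGDH reads was not tested.

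Proline synthesis did not follow. ALDH18A1, the mitochondrial enzyme that commits glutamate to proline, stood at 32.3, 29.5, 31.2 and 29.7 CPM in tri-culture and 12.7, 19.98, 25.5 and 22.7 CPM in mono-culture, so that it was 1.52-fold higher. For ALDH18A1 the log2 fold change was 0.60 ± 0.18 SE (edgeR adjusted p = 0.0248). The tri-culture libraries were nearly level and the batch 1 pair gave the widest ratio. Its call did not hold without mono-culture library 2 (edgeR adjusted p = 0.0648), without batch 1 (0.0626) or batch 2 (0.0905), and without tri-culture libraries 1 and 2 (0.0648) or 3 and 4 (0.0604). PYCR1, the last enzyme of proline synthesis, stood at 4.78 to 7.07 CPM in tri-culture and 3.11 to 7.79 CPM in mono-culture. PYCR1 had a log2 fold change of 0.14 ± 0.26 SE (edgeR adjusted p = 0.763). ASNS, asparagine synthetase and a textbook ATF4 target, was barely counted, with 8, 10, 11 and 9 reads in tri-culture and 15, 14, 48 and 7 in mono-culture. For ASNS the log2 fold change was -0.88 ± 0.46 SE (edgeR adjusted p = 0.194). In GENCODE 29 another gene on the same strand shares 44.6% of its exon bases, and how reads over 2 genes were counted is not given in the sources used here, so neither the level nor the direction of ASNS can be relied on.

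In mitochondrial one-carbon metabolism only SHMT2 fell. SHMT2, which turns serine into glycine and a folate-bound carbon unit, stood at 96.2, 93.7, 87.7 and 80.3 CPM in tri-culture and 121, 127, 154 and 116 CPM in mono-culture. SHMT2 had a log2 fold change of -0.53 ± 0.12 SE (edgeR adjusted p = 0.00364). MTHFD2, which oxidizes that unit, stood at 169, 200.4, 138 and 116 CPM in tri-culture and 186, 175, 204 and 169.6 CPM in mono-culture. For MTHFD2 the log2 fold change was -0.23 ± 0.15 SE (edgeR adjusted p = 0.302). Tri-culture library 2 was among the highest of the 8, library 1 was level with the lowest mono-culture library and libraries 3 and 4 were well below. Exons on the other strand cover 33.2% of its exon bases. Without tri-culture libraries 1 and 2 MTHFD2 was called lower (edgeR adjusted p = 0.00339). MTHFD1L, which releases formate from the carrier, stood at 62.6 to 87.9 CPM in tri-culture and 55.5 to 91.6 CPM in mono-culture. MTHFD1L had a log2 fold change of -0.08 ± 0.16 SE (edgeR adjusted p = 0.782). Genes of proliferation, which draw on this pathway for nucleotide synthesis, were lower in the same libraries, and a link was not tested.

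Of 5 amino acid transporter genes 3 fell and none rose. SLC7A1, the cationic amino acid transporter that imports arginine and lysine (ENSG00000139514, chromosome 13, 29509410 to 29595688), stood at 19.4, 17.7, 28.4 and 24.8 CPM in tri-culture and 43.02, 51.9, 94.9 and 57.9 CPM in mono-culture, with mono-culture library 3 well above the rest. It was 2.75-fold lower. For SLC7A1 the log2 fold change was -1.46 ± 0.23 SE (edgeR adjusted p = 3.72e-04). SLC38A2, a sodium-coupled carrier of small neutral amino acids that is induced by amino acid shortage, stood at 217, 254, 241 and 242 CPM in tri-culture and 368, 354, 391 and 452 CPM in mono-culture. SLC38A2 had a log2 fold change of -0.71 ± 0.12 SE (edgeR adjusted p = 4.64e-04). SLC3A2, the heavy chain shared by SLC7A5 and SLC7A11, stood at 203, 176, 192 and 179 CPM in tri-culture and 233, 302, 277 and 247 CPM in mono-culture. For SLC3A2 the log2 fold change was -0.50 ± 0.11 SE (edgeR adjusted p = 0.00537). Its light chain partners did not pass. SLC7A5, the light chain that carries leucine and other large neutral amino acids, stood at 72.5, 39.4, 71.7 and 64.2 CPM in tri-culture and 48.2, 57.9, 90.1 and 46.1 CPM in mono-culture (log2 fold change 0.03 ± 0.23 SE, edgeR adjusted p = 0.945), and SLC7A11, the cystine carrier, stood at 2.39 to 5.44 CPM in tri-culture and 2.33 to 6.19 CPM in mono-culture. SLC7A11 had a log2 fold change of -0.26 ± 0.36 SE (edgeR adjusted p = 0.653). In the length-normalized signal SLC3A2 stood at 103 ± 6.90 in tri-culture and 144 ± 14.8 in mono-culture, SLC7A5 at 46.9 ± 11.6 in tri-culture and 45.5 ± 15.2 in mono-culture, and SLC7A11 at 1.36 ± 0.508 in tri-culture and 1.60 ± 0.795 in mono-culture (SD, n = 4 each).

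No ER gene fell and 1 of 3 rose. HERPUD1, an ER membrane protein of the degradation machinery (ENSG00000051108, chromosome 16, 56932048 to 56944863), stood at 206, 159.8, 181 and 196 CPM in tri-culture and 95.2, 88.97, 86.2 and 91.6 CPM in mono-culture. It was 2.05-fold higher with tight libraries in both groups (log2 fold change 1.04 ± 0.11 SE, edgeR adjusted p = 1.33e-05). Summed astrocyte, oligodendrocyte lineage, dendritic cell and microglia markers were also higher in every tri-culture library than in any mono-culture library. Summed neuron and fibroblast markers overlapped between the groups, and 1 dendritic cell and 1 microglia marker were called lower. Which cells the HERPUD1 reads came from was not tested. HSPA5, which encodes BiP, the main ER chaperone, stood at 996, 757, 794 and 801 CPM in tri-culture and 709, 826, 634 and 824 CPM in mono-culture, with overlapping groups. For HSPA5 the log2 fold change was 0.16 ± 0.14 SE (edgeR adjusted p = 0.45). DNAJB9, a co-chaperone of BiP induced through XBP1, stood at 54.3, 55.99, 42.99 and 38.5 CPM in tri-culture and 43.1, 39.96, 29.2 and 42.2 CPM in mono-culture. DNAJB9 had a log2 fold change of 0.32 ± 0.16 SE (edgeR adjusted p = 0.167). It was called higher without tri-culture libraries 3 and 4 (edgeR adjusted p = 0.025) and with library size as the only scaling (0.0419). The promoters of the 2 higher genes that hold an element, HERPUD1 (chr16:56931892-56932141, plus strand) and ALDH18A1 (chr10:95656712-95656961, minus strand), are shown beside that of HSPA5 (chr9:125241344-125241593, minus strand), which did not pass, all up to the base before the start and with the elements in capitals. HERPUD1 holds the composite element on the reverse strand, starting 176 bases before the start, and the XBP1 core, starting 112 bases before it. ALDH18A1 holds the XBP1 core alone, starting 138 bases before the start. HSPA5 holds the ER stress element, starting 66 bases before the start. Of the 45 windows of the genes described here, 3 held the XBP1 core, against 3.22% of all windows. The third gene with the core was EIF2AK3, which did not pass. In the single form searched, the ER stress element was in 2 of the 45, against 0.0769% of all windows. These were the windows of HSPA5 and XBP1, neither of which passed. Forms of the element with other spacing, order or bases were not searched. The search therefore does not show that HERPUD1 or the other genes lack such an element.
HERPUD1: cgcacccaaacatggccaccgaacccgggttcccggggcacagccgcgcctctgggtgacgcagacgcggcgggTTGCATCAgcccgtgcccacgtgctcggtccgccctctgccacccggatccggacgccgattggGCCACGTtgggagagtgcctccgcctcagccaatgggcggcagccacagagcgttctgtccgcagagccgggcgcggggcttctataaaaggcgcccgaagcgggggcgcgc
ALDH18A1: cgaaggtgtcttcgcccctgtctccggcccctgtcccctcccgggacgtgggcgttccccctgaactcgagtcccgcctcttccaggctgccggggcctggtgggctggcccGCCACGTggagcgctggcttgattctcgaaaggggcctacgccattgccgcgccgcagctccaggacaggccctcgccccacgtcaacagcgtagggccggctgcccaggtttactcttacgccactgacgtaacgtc
HSPA5: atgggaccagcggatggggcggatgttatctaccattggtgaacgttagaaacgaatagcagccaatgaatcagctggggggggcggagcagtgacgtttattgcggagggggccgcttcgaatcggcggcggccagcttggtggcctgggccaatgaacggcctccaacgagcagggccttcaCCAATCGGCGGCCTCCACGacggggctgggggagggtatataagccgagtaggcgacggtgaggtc

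Averaged by role, the library levels show where the cultures were apart. With each gene centred on its mean log2 CPM over the 8 libraries, the 6 effectors averaged -0.29, -0.81, -0.59 and -0.74 in tri-culture libraries 1 to 4 and 0.46, 0.77, 0.64 and 0.57 in mono-culture libraries 1 to 4. The 6 amino acid synthesis genes averaged -0.25, -0.33, -0.15 and -0.39 in tri-culture and -0.15, 0.47, 0.76 and 0.05 in mono-culture, where libraries 2 and 3 were highest and library 1 stood level with tri-culture library 3. These averages include ASNS, whose level cannot be relied on. The 5 transporters averaged -0.35, -0.44, -0.02 and -0.27 in tri-culture and 0.19, 0.11, 0.66 and 0.12 in mono-culture, with mono-culture library 3 highest. The 3 ER genes ran the other way, at 0.45, 0.21, 0.17 and 0.16 in tri-culture and -0.19, -0.19, -0.48 and -0.15 in mono-culture. Per length, the most abundant of the 35 genes in tri-culture were HSPA5, at a signal of 463 ± 57.6, ATF4, at 290.05 ± 29.3, and SLC38A2, at 131 ± 9.16, against 411 ± 49.2, 469.8 ± 55.5 and 213 ± 24.8 for the same genes in mono-culture (SD, n = 4 each). ATF4 ranked above HSPA5 in mono-culture and below it in tri-culture, and in mono-culture these 2 genes differed by about their spread. Libraries of a group varied by a median coefficient of variation of 16.3% in tri-culture and 14.00% in mono-culture over the 35 genes, and 15 genes varied more in tri-culture and 20 more in mono-culture. The 35 genes lie on 16 chromosomes.

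**Figure D4:**
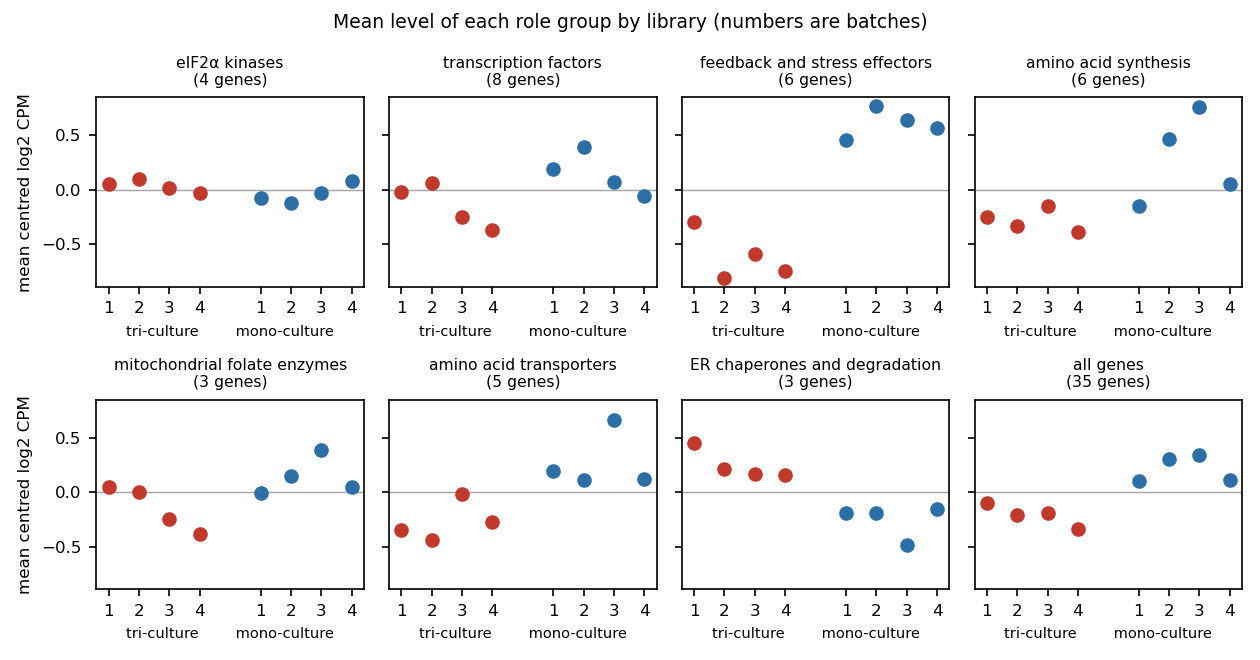
Mean log2 CPM of the genes of each role in every library, each gene centred on its mean over the 8 libraries; points are libraries, numbered by batch, with tri-culture on the left. The effectors of every tri-culture library lie below those of every mono-culture library, the kinases overlap, and the ER genes lie higher in tri-culture.

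Beyond the 35 genes, other known targets of ATF4 and of amino acid shortage also fell for the most part. Of 25 such genes 23 were tested and 15 were lower, against 13.0% of all genes tested. Another 3 were higher, a share near the 13.9% of all genes tested. The median log2 fold change of the 23 was -0.77, beside 0.02 over all genes tested. This list and those below were also chosen with earlier results of these data known, so their shares are not independent support. Levels here are means ± SD with n = 4 each. STC2, a secreted glycoprotein induced by ER stress, stood at 1.22 ± 0.614 CPM in tri-culture and 23.4 ± 5.86 CPM in mono-culture. For STC2 the log2 fold change was -4.24 ± 0.32 SE (edgeR adjusted p = 9.73e-07). GDF15, a circulating stress cytokine, stood at 0.643 ± 0.112 CPM in tri-culture and 6.26 ± 2.50 CPM in mono-culture. GDF15 had a log2 fold change of -3.27 ± 0.32 SE (edgeR adjusted p = 9.42e-06). The list also held enzymes. CBS, the first enzyme of transsulfuration, stood at 13.2 ± 2.87 CPM in tri-culture and 60.2 ± 15.9 CPM in mono-culture (log2 fold change -2.19 ± 0.20 SE, edgeR adjusted p = 4.44e-06), and PCK2, the mitochondrial enzyme that makes phosphoenolpyruvate, at 36.4 ± 3.41 CPM in tri-culture and 80.3 ± 13.2 CPM in mono-culture. For PCK2 the log2 fold change was -1.14 ± 0.13 SE (edgeR adjusted p = 3.59e-05). SLC1A5, a glutamine carrier, stood at 54.1 ± 4.47 CPM in tri-culture and 107 ± 20.3 CPM in mono-culture (log2 fold change -0.98 ± 0.14 SE, edgeR adjusted p = 1.50e-04), with exons on the other strand over 23.8% of its exon bases. ADM2, a peptide hormone of the adrenomedullin family, had 1, 0, 0 and 3 reads in tri-culture and 26, 56, 111 and 26 reads in mono-culture. It passed the filter on low counts only through mono-culture, so its call, which is among the 15, had to be a decrease. The 3 genes called higher were GPT2, an alanine aminotransferase, SLC38A1, a glutamine carrier of the family of SLC38A2, and SLC6A9, a glycine carrier abundant in glia. GPT2 stood at 16.5 ± 4.60 CPM in tri-culture and 5.56 ± 1.58 CPM in mono-culture, SLC38A1 at 25.5 ± 10.3 CPM in tri-culture and 9.25 ± 3.15 CPM in mono-culture and SLC6A9 at 3.17 ± 1.32 CPM in tri-culture and 0.708 ± 0.285 CPM in mono-culture. These 3 are named for their direction and were chosen after their values were seen.

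Cytosolic aminoacyl-tRNA synthetases, many of which ATF4 induces, were lower for 9 of 20, against 13.0% of all genes tested, and higher for none, against 13.9%. Their median log2 fold change was -0.35. GARS1 stood at 74.2 ± 6.85 CPM in tri-culture and 139 ± 14.8 CPM in mono-culture (log2 fold change -0.91 ± 0.11 SE, edgeR adjusted p = 5.92e-05), and CARS1 at 34.2 ± 1.19 CPM in tri-culture and 61.1 ± 6.97 CPM in mono-culture. CARS1 had a log2 fold change of -0.84 ± 0.11 SE (edgeR adjusted p = 9.03e-05). AARS1, the alanine enzyme and the most changed by fold, stood at 197 ± 25.3 CPM in tri-culture and 394 ± 53.9 CPM in mono-culture. For AARS1 the log2 fold change was -1.0 ± 0.14 SE (edgeR adjusted p = 1.14e-04). WARS1, IARS1 and TARS1 had log2 fold changes of -0.83, -0.65 and -0.67. WARS1 is also induced by interferon-gamma. The list held 5 lower genes without batch 3, where 1548 of 16027 genes tested were lower, and 14 without tri-culture libraries 1 and 2, where 2963 of 17451 were.

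The initiation factor itself, its exchange factor and other regulators were called about as often as other genes in the lower direction, 2 of 14 against 13.0% of all genes tested. None was higher, and the median was -0.19 on the log2 scale. The 2 were EIF2B4, a subunit of the exchange factor that phosphorylated eIF2 blocks, at 32.6 ± 2.32 CPM in tri-culture and 44.1 ± 5.88 CPM in mono-culture (log2 fold change -0.43 ± 0.12 SE, edgeR adjusted p = 0.0165), and EIF2S2, the beta subunit of eIF2, at 112 ± 26.2 CPM in tri-culture and 155 ± 21.9 CPM in mono-culture. EIF2S2 had a log2 fold change of -0.47 ± 0.16 SE (edgeR adjusted p = 0.0475). The groups of EIF2S2 overlapped, and its batch log2 ratios were -0.02, -0.02, -0.95 and -0.97 in batches 1 to 4, so that the decrease lay in batches 3 and 4. PPP1R15B, the constitutive counterpart of PPP1R15A, stood at 106 ± 7.80 CPM in tri-culture and 131 ± 15.7 CPM in mono-culture (log2 fold change -0.30 ± 0.11 SE, edgeR adjusted p = 0.0661), and it was called lower with the batch as a block (edgeR adjusted p = 0.0456). The count of lower genes was 1 without any one of tri-culture libraries 3 and 4 and mono-culture libraries 2, 3 and 4.

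Of 20 further genes of serine, glycine, folate and proline metabolism 17 were tested and 5 were lower, against 13.0% of all genes tested. Another 2 were higher, against 13.9%, and the median log2 fold change was -0.12. TYMS, thymidylate synthase, stood at 10.8 ± 2.21 CPM in tri-culture and 25.2 ± 3.14 CPM in mono-culture (log2 fold change -1.23 ± 0.17 SE, edgeR adjusted p = 1.08e-04), with 46.6% of its exon bases under exons on the other strand. MTHFD1, the cytosolic trifunctional folate enzyme, stood at 49.9 ± 3.44 CPM in tri-culture and 83.3 ± 13.3 CPM in mono-culture. For MTHFD1 the log2 fold change was -0.74 ± 0.12 SE (edgeR adjusted p = 5.94e-04). ALDH4A1, which breaks down proline, was among the lower genes at a log2 fold change of -0.36, a value that is uncertain because another annotated gene on the same strand shares 41.1% of its exon bases. Among the higher genes, GLDC, the decarboxylase of the glycine cleavage system and abundant in astrocytes, had 14, 50, 56 and 39 reads in tri-culture and 4, 0, 6 and 4 reads in mono-culture. It passed the filter on low counts only through tri-culture, so its call had to be an increase. The count of lower genes fell to 2 without tri-culture library 3 and to 3 without any one of tri-culture libraries 1 and 4 and mono-culture libraries 1 to 4.

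Among other genes of ER folding and degradation 4 of 32 were higher, against 13.9% of all genes tested, and 2 were lower, against 13.0%, neither share above that of all genes. The median log2 fold change was -0.06. The lower ones were EDEM1, which directs misfolded glycoproteins to degradation, at 133 ± 4.75 CPM in tri-culture and 205 ± 29.3 CPM in mono-culture (log2 fold change -0.62 ± 0.12 SE, edgeR adjusted p = 0.00131), and ERO1A, the oxidase that CHOP induces, at 81.7 ± 1.68 CPM in tri-culture and 112 ± 2.32 CPM in mono-culture. ERO1A had a log2 fold change of -0.46 ± 0.09 SE (edgeR adjusted p = 0.00169). ERO1B, its paralogue, was higher, at 23.3 ± 0.953 CPM in tri-culture and 16.4 ± 1.96 CPM in mono-culture (log2 fold change 0.51 ± 0.13 SE, edgeR adjusted p = 0.00858), as were CRELD2, EDEM2 and DERL3, at log2 fold changes of 0.59, 0.33 and 1.31. DERL3 lies under exons of SMARCB1 on the other strand over 77.00% of its exon bases. The count of higher genes was 2 without tri-culture library 1 or without mono-culture library 3. Of the mitochondrial chaperones and proteases 2 of 10 were lower, against 13.0% of all genes tested, too few to set the list apart. They were the protease LONP1 at 58.5 ± 2.88 CPM in tri-culture and 91.1 ± 10.6 CPM in mono-culture (log2 fold change -0.64 ± 0.11 SE, edgeR adjusted p = 6.87e-04) and the chaperone HSPA9 at 252 ± 21.5 CPM in tri-culture and 366 ± 32.6 CPM in mono-culture (log2 fold change -0.54 ± 0.11 SE, edgeR adjusted p = 0.00315), both known targets of ATF5. The median of the list was -0.15.

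**Figure D5:**
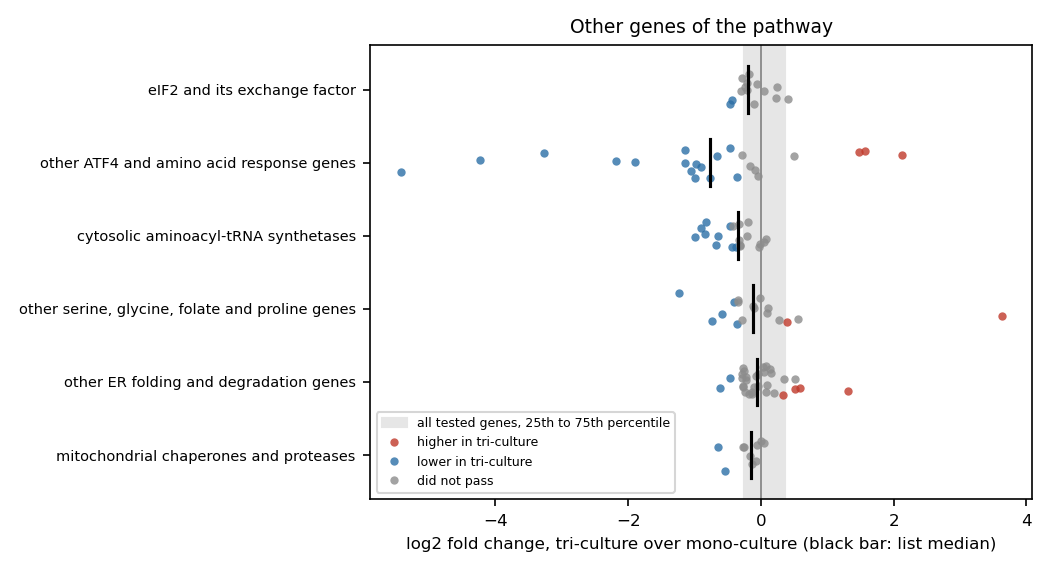
Log2 fold changes, tri-culture over mono-culture, of the tested genes of 6 further lists of the pathway; each point is a gene, black bars are list medians and the grey band is the interquartile range of all genes tested. The other ATF4 and amino acid response genes have the lowest median, -0.77, and the ER list lies around 0.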

How the data were processed

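Total RNA of sorted H1 microglia was sequenced in 8 libraries. The deposited counts are whole reads per gene, and the submitters' processing notes name HISAT2 2.1.0, featureCounts 2.12.3 and GRCh38 for them. Which annotation, strand setting and overlap rule the authors used is not given in the sources used here. The second deposited table is a length-normalized signal. The authors named it TPM, but its library totals differ and its scaling is not given in those sources, so it was used only to compare levels between genes and in an alternative test.

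Genes were filtered with filterByExpr (minimum count 10, minimum total 15), which left 16249 of 78899, and counts were scaled with TMM and tested with edgeR 4.0.16 (R 4.3.3, quasi-likelihood, robust, group only). P-values were adjusted by Benjamini-Hochberg over all genes tested, with a threshold of 0.05. A log2 fold change is positive where tri-culture was higher, and its SE is its size over the square root of F, an approximation. The fit was also run on counts simulated without batches, with dispersions taken from these data. No call rests on that run. Symbols came from a table of gene identifiers, and overlaps from GENCODE 29. Promoters are RefSeq windows.

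The members and lists were chosen with earlier results of these data known. All 35 members are named, with up to 6 genes of each further list by smallest adjusted p; other names were chosen after their values were seen. Most genes of these lists are not named. Each library has a batch number in the labels, shared between the groups, so the libraries are paired. Deviations from the group means correlated within batches 1 to 4 at 0.183, 0.125, 0.257 and 0.0773, and between different batches at -0.364 to 0.355, so the pairing rests on the labels. No library repeats another (chi-square per degree of freedom 9.21 to 65.1 within groups). P-values measure the spread between batches of 1 cell line. Alternatives were other scaling, filters, DESeq2 1.42.0, limma 3.58.1 on the signal (pseudocount 0.5 or 0.1), the batch as a block, and libraries or batches left out.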

Additional observations from a re-analysis of the deposited data

Results flagged for a closer look

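Within a group of 4 libraries, a library was looked at again when its gap to the next one took up more of the group's range than a Dixon test at 95% allows. Of 70 groups of 4 libraries looked at, 6 were picked, and chance picks about 1 in 20. NUPR1 stood at 0.600 CPM in mono-culture library 4, while the other libraries of the group lay at 2.66 to 3.04 CPM. XBP1 stood at 134 CPM in tri-culture library 1, while the other libraries of the group lay at 97.6 to 101 CPM. XBP1 stood at 101 CPM in mono-culture library 3, while the other libraries of the group lay at 126 to 128 CPM. TRIB3 stood at 2.34 CPM in tri-culture library 1, while the other libraries of the group lay at 1.47 to 1.54 CPM. SESN2 stood at 39.7 CPM in tri-culture library 1, while the other libraries of the group lay at 29.3 to 31.1 CPM. PSPH stood at 30.04 CPM in mono-culture library 3, while the other libraries of the group lay at 27.5 to 27.96 CPM. Tri-culture library 1 was picked for XBP1, TRIB3 and SESN2. TRIB3 and SESN2 stayed below all mono-culture libraries there and were still called lower without it (edgeR adjusted p = 2.24e-06 and 0.00355). No cause was tested.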

How the results depend on the processing

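Of the 17 called genes 13 kept the call under each of the 23 alternatives that tested them. EIF2AK2, SESN2, PSAT1 and ALDH18A1 lost it under at least 1, and 7 of the other 18 gained one. Lower calls numbered 14 of the 35 genes in the main analysis and 13 to 17 over the alternatives. Higher calls numbered 3 and were 1 to 3 with 1 library left out and 1 without batch 2. All 17 calls were kept with library size only, and DNAJB9 was called higher in addition. The at least 1 CPM filter left CHAC1 and ASNS untested. With library size only, the median of all genes moved to 0.12 and higher calls were 63.0% of all calls, against 0.02 and 51.7%. The batch as a replicate block gave 14 lower and 3 higher of the 35, the same 17 genes, and changed no other call among the 35. Across all genes that fit called 2370 higher and 2363 lower, against 2261 and 2112.

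The eIF2 list held 0 higher genes in the main analysis, 2 without tri-culture libraries 3 and 4. The eIF2 list held 2 lower genes in the main analysis, 1 with library size only or with upper quartile factors or with limma at a pseudocount of 0.5 or with limma at a pseudocount of 0.1 or without batch 2 or without batch 3 or without batch 4, 4 with DESeq2, 5 without tri-culture libraries 1 and 2, and 1 to 3 with 1 library left out. The synthetase list held 9 lower genes in the main analysis, 5 without batch 3, 14 without tri-culture libraries 1 and 2. The serine, glycine, folate and proline list held 2 higher genes in the main analysis, 1 with at least 1 CPM in 4 libraries or without batch 3. The serine, glycine, folate and proline list held 5 lower genes in the main analysis, 2 with library size only or without batch 3, 3 with upper quartile factors or without batch 1 or without batch 2 or without batch 4 or without tri-culture libraries 3 and 4, 8 without tri-culture libraries 1 and 2, and 2 to 4 with 1 library left out. The ER list held 4 higher genes in the main analysis, 1 without batch 1 or without batch 3, and 2 to 4 with 1 library left out. The ER list held 2 lower genes in the main analysis, 6 with DESeq2, 7 without tri-culture libraries 1 and 2. The mitochondrial list held 2 lower genes in the main analysis, 6 without tri-culture libraries 1 and 2. 

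Log2 fold changes that changed sign all belonged to genes without a call in the main analysis: EIF2AK4 (-0.03 without tri-culture libraries 1 and 2), CEBPG (-0.08 to 0.06 with 1 library left out, 0.08 with library size only, 0.07 with upper quartile factors, 0.00 with at least 1 CPM in 4 libraries, 0.05 without batch 3, 0.01 without batch 4, 0.17 without tri-culture libraries 3 and 4), NUPR1 (-0.18 without tri-culture libraries 1 and 2), DDIT4 (-0.41 to 0.04 with 1 library left out, 0.03 without batch 3, 0.01 without batch 4, 0.24 without tri-culture libraries 3 and 4), PYCR1 (-0.06 to 0.36 with 1 library left out, -0.16 without batch 1, -0.10 without tri-culture libraries 1 and 2), MTHFD2 (0.01 without tri-culture libraries 3 and 4), MTHFD1L (-0.20 to 0.03 with 1 library left out, 0.01 with library size only, 0.09 without batch 3, 0.08 without tri-culture libraries 3 and 4), SLC7A11 (0.11 without batch 1), SLC7A5 (-0.09 to 0.28 with 1 library left out, -0.15 without batch 1, -0.10 without batch 4, -0.11 without tri-culture libraries 3 and 4). The cause was not tested. Depth limits ASNS and the tri-culture values of CHAC1 most.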
